A study of Mus musculus with 6 samples.

Results

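The genes described here are 48 mouse genes of DNA replication and S phase, chosen by name for their roles in origin licensing, fork assembly, DNA synthesis, nucleotide supply and S phase entry. The list was also drawn up to hold known targets of the E2F transcription factors. All 48 were found by mouse symbol among the 18324 gene rows of a count table. The table holds 3′-end mRNA sequencing of B16-F10 cells, a pigmented mouse melanoma line derived from a C57BL/6 tumour. Cells were sorted by flow cytometry on the light scatter of melanin into high-pigmented and low-pigmented populations, with 3 libraries of each. All libraries came from this 1 line, grown in DMEM with fetal bovine serum, and no other treatment, genotype or time point separates the groups. Each high-pigmented library shares a title suffix with 1 low-pigmented library, which gives 3 pairs, called pairs 1, 2 and 3. The labels do not say what the suffix marks, nor whether the libraries of a group came from separate cultures, so p-values measure the spread between these libraries, which may be technical.

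A cell prepares to copy its genome in G1, when the origin recognition complex, Cdc6 and Cdt1 load the Mcm2-7 helicase onto origins. At the start of S phase, Cdc45 and the GINS complex join the helicase and Mcm10 helps to activate it, after which polymerase alpha with primase starts each strand and polymerases delta and epsilon extend it on the PCNA clamp. Many of these genes are targets of the E2F transcription factors, which the retinoblastoma family holds back until cyclin-dependent kinases release them, so their mRNA tends to be high in cycling cells and low in cells that have left the cycle. In the melanocyte lineage, pigment production is commonly linked to slower division, and the sort makes it possible to ask whether replication transcripts differ with pigment.

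Gene counts per library ranged from 3819605 to 7311131. Levels are given as CPM, counts per 1000000 of a library size scaled by the TMM method. The libraries of pair 2 stood apart: the row RP23-81C12.3 took 53.9% of gene counts in its high-pigmented and 27.1% in its low-pigmented library, against 3.54% to 5.03% in the others. Its high-pigmented library held 1452 counts of the 48 genes in all and its low-pigmented library 3358, while the other libraries held 5169 to 16809. Of the 48 genes, 14 had 0 counts in the former and 12 in the latter, so single values there are imprecise. Among the genes that passed the filter described next, 10 of 44 (20.3% of all genes) and 9 of 44 (7.54% of all genes) were at 0. All 10 melanocytic markers were tested, and their summed level ranged from 4590 to 21462 CPM in high-pigmented and from 6270 to 17765 CPM in low-pigmented libraries. Of 10 immune and 7 fibroblast markers, 4 and 4 had a row. The immune markers summed to 2.92 to 33.2 CPM in high-pigmented and 0 to 3.31 CPM in low-pigmented libraries, and the fibroblast markers to 0.935 to 41.9 and 2.57 to 5.29 CPM, with both maxima in the high-pigmented library of pair 2.

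Replication transcripts did not pass the test for a difference between high- and low-pigmented cells. Of 44 of these genes that passed the filter on low counts, edgeR's quasi-likelihood test left 0 below an adjusted p of 0.05, and 0% of all 11324 genes tested. At an unadjusted p under 0.05 there were 0 of the 44, against 0.336% of all genes. So few genes of any kind passed this fit that 0 of the 44 says little about pigment. Of the 10 melanocytic markers 0 passed either, with a smallest unadjusted edgeR p of 0.135. DESeq2 called 0 of the 48, and edgeR and weighted limma-voom fits with the pairs as a block called 0 of the 44. The median log2 fold change of the 44 genes, high- minus low-pigmented, was 0.15, with 24 genes higher and 20 lower, beside a median of -0.04 over all genes. Its sign depended on single libraries: it was -0.73 when the high-pigmented library of pair 1 was left out and 1.20 when its low-pigmented partner was. Leaving out the low-pigmented library of pair 2 or of pair 3 gave -0.11 or -0.24, and the high-pigmented one 0.33 or 0.49. *Orc1*, *Cdc6*, *Pold1* and *Rfc4* had too few counts to be tested over the 6 libraries.

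Within pairs 1 and 3 most of the genes lay within 1 log2 unit of equality, but only in pair 1 were they less scattered than all genes. The median log2 CPM difference of the 44 genes was 0.04 in pair 1, 0.21 in pair 2 and -0.04 in pair 3, and the medians over all genes tested were 0.016, -0.20 and -0.0024. In pair 1, 47 of the 48 genes lay within 1 log2 unit of equality, as did 37 in pair 3 and 18 in pair 2. The standard deviation of the differences over the 44 genes was 0.39, 2.60 and 0.87 in pairs 1, 2 and 3. Over all genes tested it was 0.57, 2.34 and 0.65. None of the 44 genes had all 3 high-pigmented values above or below all 3 low-pigmented values, against 5.74% of all genes tested (2.43% with the high-pigmented values above). In 8 of the 44 the high-pigmented library was the higher in every pair, against 12.9% of all genes, and in 3 it was the lower in every pair, against 17.2%.

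**Figure D1:**
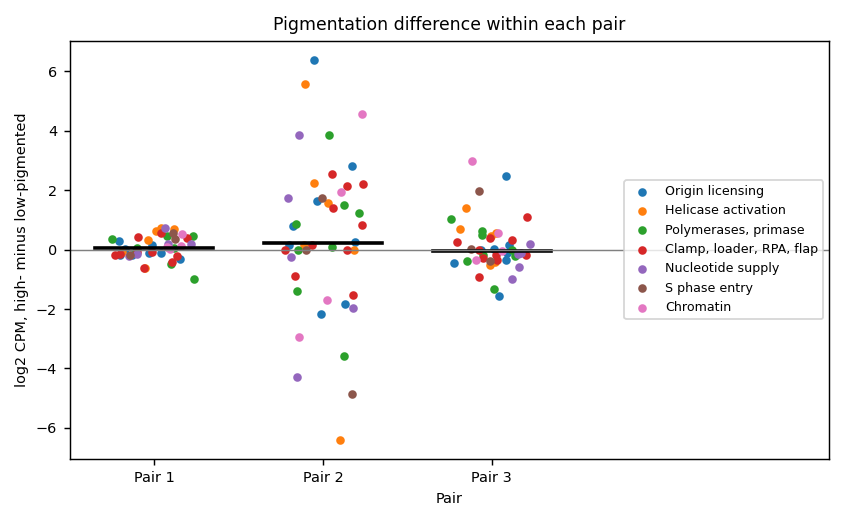
Each point is 1 of 44 tested replication genes, coloured by role. The vertical axis is the log2 CPM difference between the high- and low-pigmented library of the pair on the horizontal axis, and black lines are medians (0.04, 0.21 and -0.04). Points are spread widest in pair 2.

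A fit to pairs 1 and 3 with the pair as a block measured the pigment difference more closely. It tested all 48 genes and called 0, against 1.30% of 11906 genes, with 0.021 as the median log2 fold change and 3 genes at an unadjusted p under 0.05, against 12.1% of all genes. Those were *Cdc6* (1.38 ± 0.50, SE), *Mcm4* (-0.74 ± 0.28) and *Dut* (-0.38 ± 0.18), with adjusted p of 0.236, 0.265 and 0.386. For well-counted genes, *Dut* among them, the standard error was smaller: *Mcm3* differed by -0.09 ± 0.19, *Lig1* by 0.04 ± 0.17 and *Slbp* by 0.03 ± 0.17 on the log2 scale. Further from 0 were *Mcm2* (-0.22 ± 0.18) and *Pcna* (-0.16 ± 0.18). All 10 melanocytic markers were fitted higher in high-pigmented cells in this block fit, by 0.14 to 1.80. It called 3 of them: *Pmel* (0.74 ± 0.11), *Slc45a2* (0.76 ± 0.13) and *Oca2* (1.80 ± 0.35).

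The large differences in the summed level of these genes lay between pairs. Summed over the 48 genes, the level was 2735 CPM in the high-pigmented and 2519 CPM in the low-pigmented library of pair 1. The same sum was 845 and 960 CPM in pair 2 and 604 and 658 CPM in pair 3. The order of pairs 2 and 3 rested on the TMM scaling. As a share of all gene counts, the sum was lower in pair 2 than in pair 3 in both groups. Both libraries of pair 1 were thus above all 4 others, while the sums of the 2 sorted populations of a pair lay close together. Gene by gene this did not hold in pair 2, where 18 of the 48 genes lay within 1 log2 unit of equality. Against pair 1, pair 2 was lower in 34 of 44 tested genes in high-pigmented cells (60.9% of all genes) and in 40 of 44 in low-pigmented cells (55.3%). Leaving out *Pola2*, which holds the most counts, gave 2033 and 2004, 722 and 639, and 540 and 584 CPM in the same order. In bulk RNA a smaller share of cells in S phase and less of these mRNAs per cell cannot be told apart.

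**Figure D2:**
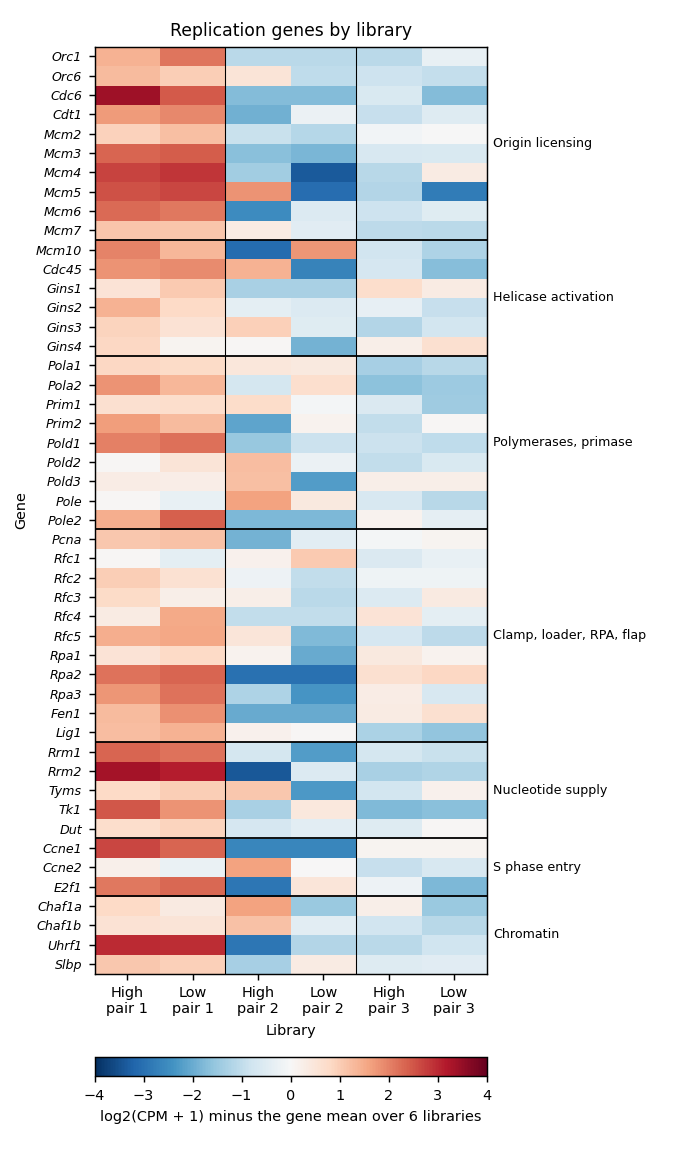
Rows are the 48 genes by role and columns the 6 libraries by pair. Colour is log2(CPM + 1) minus the gene's mean over the libraries. The columns of pair 1 are red for most rows and those of pair 3 pale or blue, in both pigment groups, while pair 2 varies from gene to gene.

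This comparison of pairs was added after the counts were seen. The pair numbers are labels and give no order in time. Genes said to fall or rise are those that passed as lower or higher in pair 3 than in pair 1. It fitted the 4 libraries of pairs 1 and 3 with the pigment group as a term, and its p-values compare those libraries, since neither pair has a replicate of its own. All 48 genes had a fitted level lower in pair 3 than in pair 1, and 37 passed an adjusted p under 0.05, against 13.7% of 11906 genes that were lower and 11.8% that were higher. The median log2 difference was -2.26, beside -0.01 over all genes, and 27 genes were more than 4-fold lower, against 5.27% of all genes. The median was -1.997 among high-pigmented and -2.31 among low-pigmented libraries. In 43 of the 48 genes pair 3 was below pair 1 in both pigment groups, against 36.8% of all genes. Of 20 G2 and mitosis genes, 19 were tested and 19 were lower in pair 3, with a median of -4.33. Their summed level was 1651 and 1234 CPM in pair 1, 209 and 127 CPM in pair 2 and 88.3 and 65.8 CPM in pair 3. For pigment over the 6 libraries, 15 of 16 tested were higher in high-pigmented cells (5326 of 11324 over all genes), with a median of 0.40, and 0 passed. Within single pairs the rise was less uniform, with 13, 9 and 11 of the 16 higher in pairs 1, 2 and 3. In every pair, 6 were the higher, against 12.9% of all genes. The pigment block fit of pairs 1 and 3 called 1 of 19, against 1.30% of all genes. That was *Cdk1*, at 0.91 ± 0.16 (edgeR adjusted p 0.00369). Of the 10 melanocytic markers, 6 passed as higher in pair 3 and 0 as lower, with a median of 0.50. Their fitted differences were mixed, since *Tyr*, which encodes tyrosinase, had 81.7 and 83.8 CPM in pair 1 and 32.4 and 3.78 CPM in pair 3 (-2.63 ± 1.43, adjusted p 0.464), and *Tyrp1* differed by -0.015. The part of either list in the difference of the replication genes was not tested.

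With pair 2 also in the fit, the median was -2.23 but 0 of the genes and 0 of all genes passed, in either direction. Leaving out single libraries of the 4 left 30 to 38 of the genes past the threshold, and DESeq2 called 31. Among the 16 genes that share no exon and no near-identical stretch with another annotated gene, 12 fell and the median was -2.39.

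**Figure D3:**
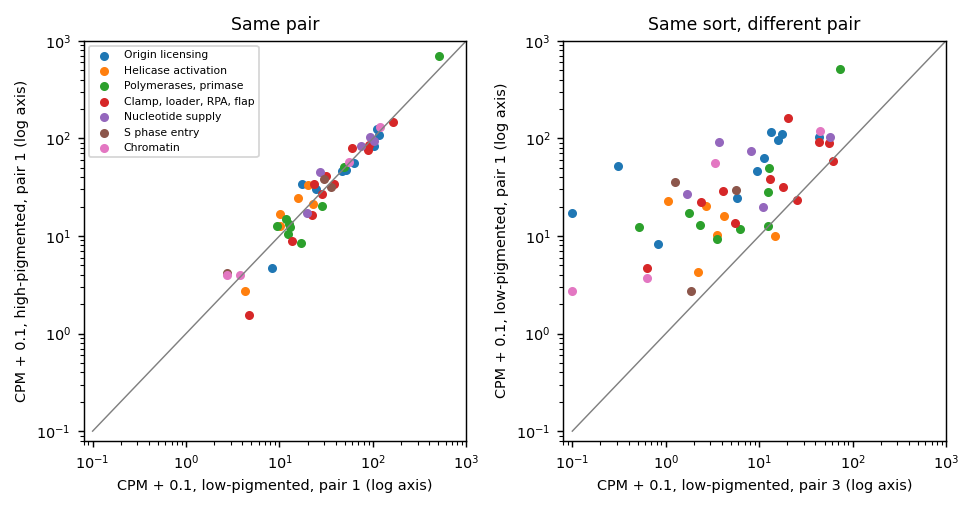
Each point is 1 of the 48 genes, on log axes of CPM plus 0.1. On the left, high- against low-pigmented cells of pair 1 lie along the line of equality. On the right, low-pigmented cells of pair 1 lie above those of pair 3 for most genes.

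Origin licensing genes fell in pair 3 as a group, 10 of 10, with a median log2 difference of -3.01. The counts of this and the other roles are to be read beside the 13.7% of all genes that passed as lower. *Mcm2*, a helicase subunit, had 83.5, 23.3 and 40.6 CPM in high-pigmented and 103, 19.4 and 43.8 CPM in low-pigmented libraries, in the order of pairs 1, 2 and 3 used throughout. Pair 1 was highest in both groups and the groups overlapped. Its difference with pigment was -0.17 ± 0.69 (log2, SE) and that of pair 3 from pair 1 was -1.14 ± 0.18 (adjusted p 2.54e-05), the smallest fall among the licensing genes.

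*Mcm6* had 124 CPM in pair 1 and 13.4 CPM in pair 3 in high-pigmented cells, and 111 and 17.3 CPM in low-pigmented cells. In pair 2 it had 3.49 and 16.9 CPM. Its log2 difference between pairs was -2.94 ± 0.20 (adjusted p 3.08e-11), with -0.08 ± 0.19 for pigment in the block fit. *Mcm3* (-3.08), *Mcm4* (-3.24) and *Mcm7* (-2.30) also fell. *Mcm5* had 294 and 312 counts in pair 1, 48 and 0 in pair 2 and 23 and 2 in pair 3, the first number of each being the high-pigmented library. Its between-pair difference was -5.21 ± 0.60 (adjusted p 0.000543), and the counts outside pair 1 were too few to place high- against low-pigmented cells.

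The loading factors were lower in pair 3 as well. *Cdc6*, the ATPase that brings the helicase to origins, had 210 and 104 counts in pair 1, 0 and 0 in pair 2 and 10 and 0 in pair 3 (high- then low-pigmented), with a log2 difference of -5.61 ± 0.56 between pairs 3 and 1. *Cdt1*, its partner in loading, had 55.3, 3.49 and 7.95 CPM in high-pigmented and 63.3, 13.4 and 11.02 CPM in low-pigmented libraries. The low-pigmented library was above the high-pigmented one in each pair, yet the differences of -0.19, -1.85 and -0.45 gave a fitted -0.38 ± 1.07 (adjusted p 0.9996). *Orc6*, a subunit of the origin recognition complex, had 29.9, 17.5 and 6.31 CPM in high-pigmented and 24.5, 5.43 and 5.67 CPM in low-pigmented libraries. In every pair the high-pigmented value was the higher, by 0.29, 1.63 and 0.15 on the log2 scale. Its fitted difference of 0.59 ± 0.87 (log2, SE) did not pass, with an unadjusted edgeR p of 0.518, the smallest among the licensing genes.

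The promoters of these genes were examined as a description, with no test. The RefSeq table (build GRCm38.p6) held windows from 250 bases before to 50 after the start for 40 of the 48 genes. The E2F words TTTCCCGC, TTTCGCGC, TTTGCCGC and TTTGGCGC were searched on both strands, and matches could overlap. At least 1 word stood in a window of 15 of the 40 genes (37.5%), against 2.60% of all 27025 genes in the table, or 2.26% of all 32851 windows. Since the list was chosen partly for E2F targets, a surplus over all genes was built into it. A part of E2F in the difference between pairs was not tested. Of genes that fell in pair 3, 13 of 33 had one, and 2 of 7 of the others. The word CCAAT, searched on both strands and contained in no E2F word, stood in 24 of the 40 (60.0%), against 41.1% of all genes. A match is a description of the letters and no measure of binding. For 4 genes that fell, an E2F word lay upstream of the start in a stretch free of annotated exons. These stretches of 100 bases are shown 5′ to 3′ on the gene's strand, with only the E2F words in capitals. They are *Mcm5* at chr8:75109316-75109415 (plus strand), *Mcm6* at chr1:128359756-128359855 (minus strand), *Pola1* at chrX:93632234-93632333 (minus strand) and the second RefSeq start of *Uhrf1* at chr17:56304088-56304187 (plus strand).
Mcm5: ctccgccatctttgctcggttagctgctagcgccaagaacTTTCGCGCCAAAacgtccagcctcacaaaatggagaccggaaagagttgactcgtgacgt
Mcm6: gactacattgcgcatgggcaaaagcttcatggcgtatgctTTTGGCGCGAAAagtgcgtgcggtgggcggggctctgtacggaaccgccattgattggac
Pola1: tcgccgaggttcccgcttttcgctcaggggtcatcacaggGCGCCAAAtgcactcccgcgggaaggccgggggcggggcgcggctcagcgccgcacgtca
Uhrf1: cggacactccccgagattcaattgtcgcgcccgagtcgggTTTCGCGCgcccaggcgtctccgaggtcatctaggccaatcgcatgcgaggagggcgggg
In *Mcm5* and *Mcm6* words on opposite strands overlap. The window of *Mcm6* held 3 words, and the last, 47 bases before the start, lies outside the printed stretch. The log2 differences of pair 3 from pair 1 were -5.21 for *Mcm5*, -2.94 for *Mcm6*, -2.10 for *Pola1* and -4.29 for *Uhrf1*. The window of *Rrm2*, whose difference was -4.83, held none of these E2F words.

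Of the 6 genes that activate the helicase, 4 fell in pair 3, with a median of -1.94. *Cdc45*, which joins the helicase at firing origins, had 21.2 and 22.5 CPM in pair 1 and 3.04 and 0.945 CPM in pair 3, a difference of -3.55 ± 0.45 (log2, SE). *Mcm10*, the scaffold that helps activation, had 32.9, 0 and 3.98 CPM in high-pigmented and 20.3, 28.0 and 2.62 CPM in low-pigmented libraries. Pair 2 was split, with 98 counts in low-pigmented and 0 in high-pigmented cells, and *Mcm10* fell by 3.00 between pairs 1 and 3 (adjusted p 3.18e-07). Its pigment difference of -0.44 ± 1.41 turned to 0.64 ± 0.34 when pair 2 was left out and the pairs were blocked.

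The GINS subunits did not move as 1 unit. *Gins2* (-1.90) and *Gins3* (-1.97) fell, while *Gins1* (-0.38 ± 0.78) and *Gins4* (-0.04 ± 0.36) did not pass. *Gins3* had 12.7, 13.4 and 2.34 CPM in high-pigmented and 10.1, 4.29 and 3.46 CPM in low-pigmented libraries. *Gins4* had 16.8, 9.31 and 10.9 CPM against 9.92, 1.72 and 14.7 CPM, with no order of the pairs common to both groups. The call of *Gins3* was lost in DESeq2 and when the high-pigmented library of pair 1 was left out (-1.79). *Gins1* had at most 26 counts in any library.

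Among polymerase and primase genes 7 of 9 fell, with a median of -2.10. *Pola2*, the B subunit of polymerase alpha, had 701, 123 and 64.8 CPM in high-pigmented and 515, 320 and 73.9 CPM in low-pigmented libraries. On the TMM scale, its level was highest in pair 1 and lowest in pair 3 in both groups. Its log2 difference between pairs was -3.12 ± 0.16 (adjusted p 2.95e-12), against -0.03 ± 0.95 for pigment. Its transcripts share stretches of at least 100 nucleotides and 95% identity with 274 other genes, of which the table lists 194, so its counts are uncertain. *Pola1*, the catalytic subunit of the same enzyme (-2.10), and the primase subunits *Prim1* (-1.92) and *Prim2* (-2.32) also fell.

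Polymerase delta and epsilon subunits were mixed. *Pold1*, the catalytic subunit of delta, had 64 and 74 counts in pair 1 and 5 and 4 in pair 3, a difference of -4.46, whereas its accessory subunit *Pold3* had 13.0 and 12.6 CPM in pair 1 and 12.4 and 12.4 CPM in pair 3 (-0.05 ± 0.34). *Pole*, the catalytic subunit of epsilon, had 14.8, 46.0 and 8.89 CPM in high-pigmented and 11.6, 19.4 and 6.19 CPM in low-pigmented libraries. On the TMM scale, pair 2 was highest in both groups, and the high-pigmented value was the higher in each pair. The pigment difference was 0.89 ± 0.79 (edgeR adjusted p 0.9996) and the pair difference -0.82 ± 0.37 (adjusted p 0.117). Its transcripts share near-identical stretches with 161 other genes. *Pole2*, a subunit of the same enzyme, and *Pold2* fell (-2.45 and -1.17).

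Genes of the clamp, its loader, single-strand binding and flap processing had 7 of 11 called lower in pair 3 and a median of -1.22, the nearest to 0 of the 7 roles. *Pcna*, the sliding clamp, had 85.6, 9.89 and 37.8 CPM in high-pigmented and 91.6, 29.4 and 43.2 CPM in low-pigmented libraries. Pair 1 was highest in both groups, the low-pigmented library was the higher in each pair, and *Pcna* fell by 1.13 ± 0.18 between pairs 1 and 3 (adjusted p 3.18e-05). *Lig1*, which seals Okazaki fragments, had 147, 69.3 and 24.9 CPM against 163, 62.9 and 20.05 CPM and fell by 2.79 (adjusted p 1.42e-11).

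*Rfc1*, the large subunit of the clamp loader, did not follow this order. It had 80.05, 86.1 and 51.3 CPM in high-pigmented and 59.0, 159 and 61.8 CPM in low-pigmented libraries, a pair difference of -0.29 ± 0.19 (adjusted p 0.308) and a pigment difference of -0.36 ± 0.50. *Rpa1*, the large subunit of the single-strand binding protein, was at 75.5 and 88.6 CPM in pair 1 and 67.5 and 56.1 CPM in pair 3 (-0.41 ± 0.18, adjusted p 0.0988). Its partners *Rpa2* (-1.58) and *Rpa3* (-2.39) fell. So did the loader subunits *Rfc2* (-1.01) and *Rfc5* (-2.57) and the flap nuclease gene *Fen1* (-1.22), while *Rfc3* and *Rfc4* did not pass.

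All 5 genes of nucleotide supply fell, with a median of -3.18. *Rrm2*, the S phase subunit of ribonucleotide reductase, had 640 and 559 counts in pair 1, 0 and 22 in pair 2, and 28 and 34 in pair 3 (high- then low-pigmented). Scaled to library size this was 104 and 92.4 CPM in pair 1 and 3.27 and 3.57 CPM in pair 3, a log2 difference of -4.83 ± 0.24 (adjusted p 1.26e-13). The 2 sorted populations differed by 0.08 ± 0.22 in the block fit. *Rrm1*, the large subunit, fell (-3.18), as did thymidylate synthase *Tyms* (-1.24). Thymidine kinase *Tk1* had 45.1 and 27.1 CPM in pair 1 and 1.40 and 1.57 CPM in pair 3, a difference of -4.54.

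*Dut*, the enzyme that clears dUTP, had 92.7, 34.9 and 38.5 CPM in high-pigmented and 104, 41.2 and 57.5 CPM in low-pigmented libraries. Its log2 differences within pairs were -0.16, -0.24 and -0.58, high- minus low-pigmented, and the groups overlapped. The fitted pigment difference was -0.28 ± 0.54, and the difference of pair 3 from pair 1 was -1.06 ± 0.18 (adjusted p 6.75e-05). That call was lost (-0.77) when high-pigmented cells of pair 3 were left out.

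Of the 3 genes of S phase entry, *E2f1* and *Ccne1* fell in pair 3. *E2f1*, an activating E2F factor and itself an E2F target, had 31.6, 0 and 5.49 CPM in high-pigmented and 35.7, 9.43 and 1.15 CPM in low-pigmented libraries. Its pair difference was -3.50 ± 0.47 (adjusted p 0.000172), and its differences with pigment were -0.18, -4.85 and 1.97 in pairs 1, 2 and 3. The cyclin E genes encode the partners of Cdk2 at the start of S phase. *Ccne1* had 38.2 and 29.7 CPM in pair 1, 0 counts in both libraries of pair 2 and 5.61 and 5.56 CPM in pair 3, a difference of -2.59 (adjusted p 2.08e-07). *Ccne2* had at most 25 counts in any library, with 4.07, 12.2 and 1.29 CPM against 2.64, 3.43 and 1.78 CPM, and its pigment difference of 1.13 ± 1.15 became 0.09 ± 0.88 in the block fit of pairs 1 and 3.

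Among genes that rebuild chromatin behind the fork, *Uhrf1* and *Slbp* fell. *Uhrf1*, which directs maintenance methylation to new DNA, had 349 and 337 counts in pair 1, 0 and 8 in pair 2 and 21 and 31 in pair 3, a log2 difference of -4.29 ± 0.28 (adjusted p 9.96e-12). *Slbp*, the binding protein of histone mRNA stem-loops, had 130, 23.9 and 42.6 CPM in high-pigmented and 119, 77.2 and 44.4 CPM in low-pigmented libraries and fell by 1.52 ± 0.17 on the log2 scale. The subunits of chromatin assembly factor 1 were sparse. *Chaf1a* had 24, 13 and 20 counts in high-pigmented and 16, 0 and 0 counts in low-pigmented libraries, and was the higher in high-pigmented cells in each pair. It had the smallest p of all 44 genes for pigment, 0.220 in edgeR (adjusted p 0.9996), with a log2 fold change of 2.31 ± 1.74 that depends on how 0 counts are treated. It went to 7.74 when the low-pigmented library of pair 1, the only one of its group with counts, was left out. *Chaf1a* shares an exon with *Ubxn6* on the opposite strand and near-identical stretches with 49 genes, so these few counts are uncertain. *Chaf1b* did not pass (-2.38 ± 0.97, adjusted p 0.0771 between pairs).

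**Figure D4:**
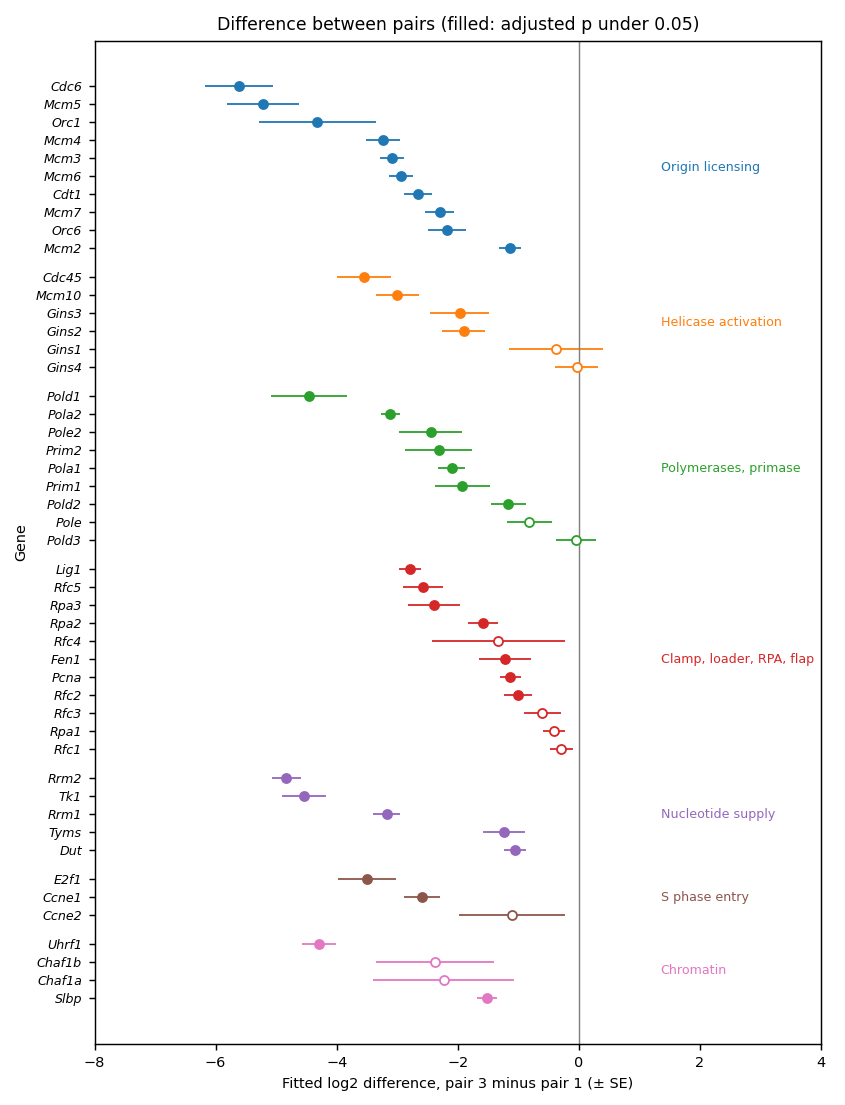
Points are fitted log2 differences of pair 3 from pair 1 for the 48 genes, by role, with standard errors as bars. Filled points passed an adjusted p under 0.05 (37 genes). All points lie left of 0, from *Cdc6* at -5.61 to *Gins4* at -0.04.

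The other genes of the pathway were a list of 80, with 79 rows in the table. For pigment, 0 of 74 tested passed over the 6 libraries and 37 were higher and 37 lower, with a median of -0.01. *Cdkn1a* had the smallest p among the E2F, RB and S phase regulators and *Top1* among the polymerase subunits and nucleases, with log2 fold changes of 1.05 ± 0.37 and -0.98 ± 0.52 (adjusted p 0.9996 each). *Orc4* (-0.82), *Chek1* (-1.01), *Dctpp1* (-1.20) and *Cdca7* (-1.37) had the smallest p of the remaining roles. In the block fit of pairs 1 and 3, 3 of 77 passed, against 1.30% of all genes, each higher in high-pigmented cells: *Top2a*, DNA topoisomerase II alpha (1.04 ± 0.16, adjusted p 0.000888), *Cdkn1a*, the inhibitor that binds both cyclin-dependent kinases and PCNA (0.80 ± 0.13, 0.00171), and *Cdk2* (0.79 ± 0.13, 0.00229). *Cdk2* shares an exon with the pigment gene *Pmel* on the opposite strand, and *Cdkn1a* one with AC167363.2. The strand setting of the counting is not given in the sources used here.

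Between pairs, 43 of 77 of these other genes passed as lower in pair 3 and 4 as higher, with a median of -1.12. Over all genes 13.7% passed as lower and 11.8% as higher, so those that rose were a smaller share here than over all genes. The fall took in *Hells* (-3.00), *Clspn* (-3.78) and *Ccna2* (-4.01), which encode a chromatin remodeller, a checkpoint mediator and cyclin A2. The 4 that rose were the inhibitor *Cdkn1b* (1.29 ± 0.18, adjusted p 5.26e-06), *Rnaseh2b* (1.25), *Rad17* (0.51) and *Chtf8* (0.46).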

How the data were processed

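Total RNA of sorted cells was made into Lexogen QuantSeq 3′ libraries and read on a NextSeq, per the labels' protocols. The authors deposited 1 table of raw counts per gene. HTSeq is named by the table, and STAR and GRCm38 by the submitters' processing notes; versions, strand setting and annotation are not given in the sources used here. Molecular identifiers are not mentioned, so counts may include copies of 1 molecule. A 3′-end count does not scale with transcript length, and levels are compared between libraries, not between genes.

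Tally rows of no-feature reads (12.4% to 29.5% of tallied reads) and ambiguous reads (0.487% to 2.51%) were left out. The test was edgeR 4.0.16's robust quasi-likelihood fit (glmQLFit, then glmQLFTest) in R 4.3.3 after filterByExpr (minimum count 10) and TMM, on the 2 groups with no covariate. P-values were Benjamini-Hochberg adjusted over all genes tested. Log2 CPM used a prior count of 2. DESeq2 1.42.0, limma 3.58.1, other scalings, no count filter, blocking on pairs and dropping single libraries were alternatives. Fits were tested on simulated data.

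The title suffix was taken to pair libraries. Same-suffix libraries deviated together from their group means (correlations across genes 0.466, 0.316 and 0.422, each over 0.1). Libraries of different suffix were not compared in this way, so these values do not show by themselves that the suffix marks pairs. Every 2 libraries differed beyond counting noise (smallest chi-square divided by its degrees of freedom, 13.5). The members and lists were chosen with earlier results of these data known. Genes given in full were, in each role, those with the smallest unadjusted p and the highest mean CPM, any with groups that did not overlap, and any called. The rule let any of the 48 be named, and the further ones with values were chosen after their values were seen. Overlaps and near-identical stretches came from GENCODE vM21 (GRCm38) with blastn 2.17.0. Figures used matplotlib 3.10.9. The fit of pair 3 against pair 1 and its alternatives were added after the counts were seen.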

Additional observations from a re-analysis of the deposited data

How the results depend on the processing

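For pigment, the count of replication genes called was 0 under every alternative run. Over all genes the count moved from 0 to 5 with DESeq2, 155 with the pair block without pair 2 and 34 with limma-voom, sample weights and the pair block. The pair block on all 6 libraries called 0 and changed no call. The median log2 fold change of the replication genes was 0.15, moved to 0.021 with the block without pair 2, and ranged from -0.73 to 1.20 when single libraries were left out. Turned in direction with the block without pair 2 were *Gins3* (-0.077), *Mcm10* (0.64), *Pola2* (0.13), *Rfc1* (0.071), *E2f1* (0.62) and *Slbp* (0.027), and with weighted limma-voom *Mcm10* (0.59), *Pola2* (0.20), *Rfc1* (0.044) and *Slbp* (0.019). Leaving out single libraries, log2 fold changes ranged from -0.036 to 1.69 for *Orc6*, -0.80 to 0.64 for *Mcm2*, -2.92 to 0.13 for *Mcm10*, -0.053 to 1.37 for *Pole*, -1.71 to 0.61 for *Pola2*, -0.60 to 0.26 for *Rfc1*, -0.89 to 0.17 for *Dut*, -2.37 to 1.28 for *E2f1* and -1.27 to 0.13 for *Slbp*. Those of *Chaf1a* (1.72 to 7.74), *Gins3* (0.33 to 1.28) and *Ccne2* (0.037 to 1.61) kept their direction. The counts of *Chaf1a* and *Ccne2* were few. The cause was not tested.

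For pair 3 against pair 1, all alternatives were chosen after seeing the data. Genes lower and higher numbered 1633 and 1402, 923 and 683 with DESeq2, and 0 and 0 with all 6 libraries, where 0 replication genes passed. Without a group term 1147 were lower and 792 higher. Leaving out single libraries gave 763 (high-pigmented, pair 1) to 1243 lower and 410 (low-pigmented, pair 1) to 858 higher. The median of the replication genes stayed between -2.46 and -2.05 in the settings run. Few counts limit the values of pair 2, where 19 and 21 of the 48 genes had under 10, against 0 to 8 in the other libraries.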
